A study of Mus musculus with 6 samples.

Results

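*Gas5* and 6 other long noncoding RNAs that carry small nucleolar RNAs (snoRNAs) in their introns, *Snhg1*, *Snhg3*, *Snhg5*, *Snhg6*, *Snhg8* and *Snhg12*, were examined in mouse Naive, Th17 and Th1 cells. The members were taken by gene symbol, and all 7 were among the 24223 genes counted and among the 13607 genes with enough counts to be tested. RNA-Seq gave 6 libraries, 2 for each cell type. Naive CD4+CD44- T cells were isolated by a bead kit from pooled lymph nodes and spleens of C57BL/6 mice aged 1 to 2 months, with no gene altered in any group. Th17 and Th1 cells were made from such cells by culture to day 5 with anti-CD3 and anti-CD28 antibodies or beads that carry them, so every comparison with Naive joins activation, culture and polarization. Th17 cultures received anti-IL-4, anti-IFN-γ, TGF-β, IL-6, IL-1β and IL-23, and Th1 cultures received anti-IL-4, IL-12 and IL-2. The study calls the replicates independent and biological, but the sources do not say which animals gave each, so p-values measure only the spread between these libraries.

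SnoRNAs guide the chemical modification of ribosomal RNA. C/D box snoRNAs direct the methylation of ribose and H/ACA box snoRNAs direct the change of uridine to pseudouridine. In mammals most are cut from introns of host genes, and in the *Gas5* and *Snhg* genes the spliced exons that remain hold no long conserved reading frame. Several of these hosts start with a 5′ terminal oligopyrimidine (TOP) tract, like the mRNAs of ribosomal proteins, and their spliced RNA is removed by nonsense-mediated decay, a pathway coupled to translation. *Gas5*, growth arrest-specific 5, was named for its accumulation in cells that stop growing, and its RNA can bind the glucocorticoid receptor. In T cells it is known for slowing growth.

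In GENCODE vM21, on the GRCm38 (mm10) assembly that the reads were aligned to, the 7 hosts hold 27 snoRNA loci, 9 in *Gas5*, 8 in *Snhg1*, 4 in *Snhg12*, 2 each in *Snhg3* and *Snhg5*, and 1 each in *Snhg6* and *Snhg8*. *Gas5* lies on chromosome 1 from 161034422 to 161038539, on the + strand, and *Snhg6* is on the same chromosome from 9941959 to 9944118, on the - strand. On chromosome 4, *Snhg12* runs from 132308623 to 132311024 on the + strand and *Snhg3* from 132348014 to 132353686 on the - strand. *Snhg1* is on chromosome 19 from 8723475 to 8726443 (+), *Snhg5* on chromosome 9 from 88521050 to 88522929 (-), and *Snhg8* on chromosome 3 from 123507552 to 123508404 (-). GENCODE lists 25 transcripts of *Gas5*, of which 20 retain an intron, and 14 of 18 for *Snhg1*. For *Snhg3*, *Snhg6* and *Snhg12* it lists none with a retained intron.

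**Figure D1:**
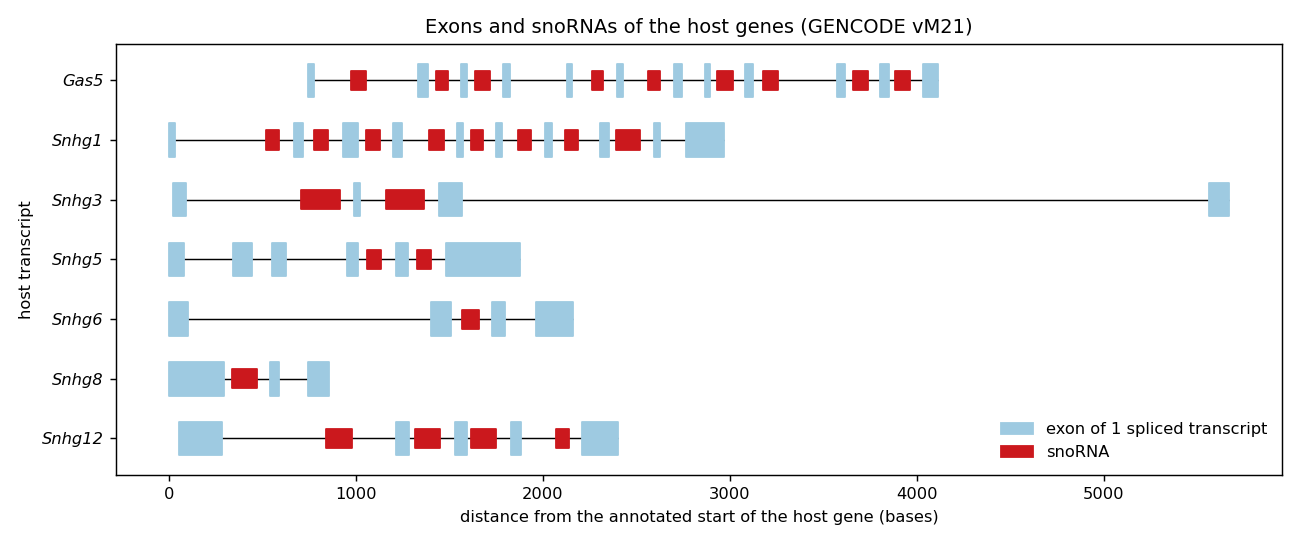
Each row is 1 host gene, drawn as distance in bases from its annotated start, with the exons of 1 spliced transcript in blue and snoRNA loci in red. The 9 snoRNAs of *Gas5* and the 8 of *Snhg1* alternate with short exons.

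The snoRNAs below were chosen to show what the introns carry. They comprise the only *Gas5* snoRNA with a row under its GENCODE symbol in the count files, the near-identical pair of *Snhg5*, and 1 each from *Snhg6*, *Snhg8* and *Snhg12*. Capitals mark the box C letters TGATGA that start within the first 15 bases and the box D letters CTGA within the last 15 or, in Snora24 and Snora16a, the ACA near the 3′ end. Sequences are those of GENCODE vM21, 5′ to 3′, written as DNA.
Snord47 in *Gas5* (chr1:161038082-161038158, strand +): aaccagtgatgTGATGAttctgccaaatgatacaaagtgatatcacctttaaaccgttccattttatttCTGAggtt
Snord50a in *Snhg5* (chr9:88521529-88521600, strand -): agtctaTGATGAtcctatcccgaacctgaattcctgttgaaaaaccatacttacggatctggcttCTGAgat
Snord50b in *Snhg5* (chr9:88521797-88521868, strand -): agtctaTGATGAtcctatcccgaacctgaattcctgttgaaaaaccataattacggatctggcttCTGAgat
Snord87 in *Snhg6* (chr1:9942463-9942549, strand -): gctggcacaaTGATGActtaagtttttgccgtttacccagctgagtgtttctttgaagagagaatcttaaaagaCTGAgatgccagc
Snora24 in *Snhg8* (chr3:123507937-123508066, strand -): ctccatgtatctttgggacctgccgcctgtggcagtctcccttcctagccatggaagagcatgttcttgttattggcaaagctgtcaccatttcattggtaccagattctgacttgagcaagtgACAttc
Snora16a in *Snhg12* (chr4:132309464-132309600, strand +): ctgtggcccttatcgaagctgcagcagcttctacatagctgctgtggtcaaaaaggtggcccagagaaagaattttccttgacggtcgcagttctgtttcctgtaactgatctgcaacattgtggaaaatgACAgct

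With these letters, 16 of the 27 loci held boxes C and D, 5 held the ACA alone and 6 held neither. Among all GENCODE transcripts named Snord, 68.7% of 99 held both boxes, and 95.2% of 42 named Snora held the ACA within the last 8 bases. The 27 loci mix both kinds of snoRNA, so 16 of 27 cannot be set against either percentage. Snord50a and Snord50b differed at 1 of 72 positions. Snora73a and Snora73b, the U17 snoRNAs of *Snhg3*, which act in the early cleavage of the ribosomal RNA precursor, differed at 7 of 205 positions.

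RefSeq promoters were available for 6 members, all but *Snhg6*. They are shown because 5 of these genes share a feature near a start that the choice of members did not use. Each line runs from 60 bases before the RefSeq start (GRCm38.p6) to 50 bases from it, 5′ to 3′ on the strand of the gene. Capitals mark TATA and the longest run of only C and T between 10 bases before the start and 20 from it.
*Gas5* (chr1:161035106-161035215, strand +): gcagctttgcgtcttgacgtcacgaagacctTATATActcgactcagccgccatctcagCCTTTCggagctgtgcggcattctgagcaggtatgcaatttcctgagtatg
*Snhg1* (chr19:8723427-8723536, strand +): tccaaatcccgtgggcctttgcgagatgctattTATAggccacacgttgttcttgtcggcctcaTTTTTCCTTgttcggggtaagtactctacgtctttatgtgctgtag
*Snhg5* (chr9:88522848-88522957, strand -): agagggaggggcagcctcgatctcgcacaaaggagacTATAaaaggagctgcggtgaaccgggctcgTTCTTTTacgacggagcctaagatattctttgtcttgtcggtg
*Snhg8* (chr3:123508287-123508396, strand -): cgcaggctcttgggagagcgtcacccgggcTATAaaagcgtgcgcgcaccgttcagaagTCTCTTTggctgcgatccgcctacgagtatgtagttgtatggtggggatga
*Snhg12* (chr4:132308618-132308727, strand +): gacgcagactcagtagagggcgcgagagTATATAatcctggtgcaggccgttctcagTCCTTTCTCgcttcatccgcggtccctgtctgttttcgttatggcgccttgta
*Snhg3* (chr4:132353637-132353746, strand -): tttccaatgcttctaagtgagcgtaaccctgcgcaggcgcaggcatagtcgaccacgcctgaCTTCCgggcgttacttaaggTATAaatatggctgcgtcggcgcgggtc

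The letters TATA, which read the same on both strands, occurred between 45 and 15 bases before the start in *Gas5*, *Snhg1*, *Snhg5*, *Snhg8* and *Snhg12*, at -29, -27, -23, -30 and -32. They occurred in that window in 6.72% of 32851 RefSeq promoters. In *Snhg3* they lay outside it, at -173 and 22, and the other listed start of *Gas5* had none in its 300 bases. The C and T run was 9 bases long in *Snhg1* and *Snhg12*, a length reached by 7.11% of promoters, 7 bases in *Snhg5* and *Snhg8* (17.9% of promoters) and 6 bases in *Gas5* (28.7%). It was 5 bases in *Snhg3* (46.4%) and 3 bases at the other listed start of *Gas5* (88.3%). Both motifs were chosen after the sequences were seen, and a match is a description only.

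The libraries held between 17742158 and 69080017 counts on genes, with replicate 1 the deeper in each cell type, and the members had between 228 and 13813 counts per library. The limit of detection, 3 counts, stood between 0.0440 and 0.190 CPM, the usual depth-scaled count unit, here relative to library totals scaled by TMM. CD4 T cell markers (*Cd3e*, *Cd4*, *Lck* and 4 others) summed to between 2740 and 4110 CPM in the 6 libraries. The Th17 cytokine *Il17a* had 526 and 691 CPM in Th17 and at most 0.541 CPM elsewhere, and *Il17f* had 769 and 1090 CPM in Th17 and at most 0.480 CPM elsewhere. The 4 Th1 markers summed to 775 and 763 CPM in Th1 and to between 67.6 and 93.9 CPM elsewhere. The 4 naive T cell markers did not separate Naive, with 2270 and 3520 CPM there and between 1830 and 3450 CPM in the cultures. Th17 also held neutrophil markers, a list of 7 that summed to 2880 and 2770 CPM, where Naive had 310 and 189 CPM and Th1 had 27.4 and 39.3 CPM. The list was split. *S100a8*, *S100a9*, *Ngp*, *Ltf* and *Camp* each had at least 87.8 CPM per Th17 library, against at most 0.969 CPM per Naive library. *Mpo* went the other way, lower in Th17 (68.1 and 58.7 CPM) than in Naive (251 and 159 CPM). *Elane* overlapped between Th17 (52.5 and 46.9 CPM) and Naive (57.3 and 29.6 CPM). In bulk RNA, fewer cells of a type and less RNA per cell cannot be told apart.

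*Gas5* was the most abundant member, with between 44.9% and 53.0% of the members' counts in each library. It had 168.5 and 158 CPM in Naive, 211 and 344 CPM in Th17, and 185 and 262.5 CPM in Th1. Both Th17 libraries and both Th1 libraries lay above both Naive libraries, while the Th17 and Th1 ranges overlapped. *Snhg1* had 46.6 and 47.3 CPM in Naive, 74.1 and 127 CPM in Th17, and 66.1 and 80.3 CPM in Th1. The order of the cell types was the same as for *Gas5*, and again the Th17 and Th1 libraries overlapped.

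*Snhg5*, the host of the U50 snoRNAs, had 28.9 and 25.1 CPM in Naive, 48.0 and 68.6 CPM in Th17, and 61.2 and 54.6 CPM in Th1. All 4 culture libraries lay well above both Naive libraries. *Snhg6*, the host of Snord87, had 28.4 and 17.2 CPM in Naive, 42.4 and 75.3 CPM in Th17, and 29.6 and 31.6 CPM in Th1. Here the Th17 libraries lay above the other 4. *Snhg12*, which carries both kinds of snoRNA, had 17.6 and 18.7 CPM in Naive, 23.8 and 30.9 CPM in Th17, and 17.4 and 19.98 CPM in Th1. Its Naive and Th1 libraries overlapped, and its Th17 libraries were higher.

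*Snhg8*, the host of Snora24, had 53.8 and 30.7 CPM in Naive, 36.7 and 56.8 CPM in Th17, and 25.3 and 30.8 CPM in Th1. The Naive and Th17 ranges were much the same, and the higher Th1 library lay just above the lower Naive library. *Snhg3* had 31.7 and 11.3 CPM in Naive, 28.1 and 40.0 CPM in Th17, and 23.7 and 15.4 CPM in Th1. The Naive replicates of *Snhg3* differed by 2.81 times, the widest gap between replicates of any member.

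All 7 members were highest in Th17 replicate 2, although for *Snhg8* the lead over Naive replicate 1 was small (56.8 against 53.8 CPM). Together the members reached 464 and 743 CPM in the Th17 replicates, where Naive had 376 and 308 CPM and Th1 had 408 and 495 CPM. As a share of raw counts, with no scaling, these were 0.0506% and 0.0740% in Th17, 0.0395% and 0.0334% in Naive, and 0.0382% and 0.0427% in Th1, so that Th1 replicate 1 then lay below Naive replicate 1. Across members the median gap between the Th17 replicates was 0.63 on the log2 scale, against 0.33 across all genes tested. In Naive and Th1 the members' gaps were 0.21 and 0.28, against 0.42 and 0.37 for all genes. Markers of macrophages and of mast cells and basophils were also higher in Th17 replicate 2 than in replicate 1, with 796 against 235 CPM for 4 macrophage genes (*Lyz2* at 762 and 223 CPM) and 301 against 119 CPM for 4 mast cell and basophil genes. In the other 4 libraries these lists summed to between 10.1 and 36.7 CPM and between 6.39 and 34.9 CPM. Their part in the members' values was not tested.

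**Figure D2:**
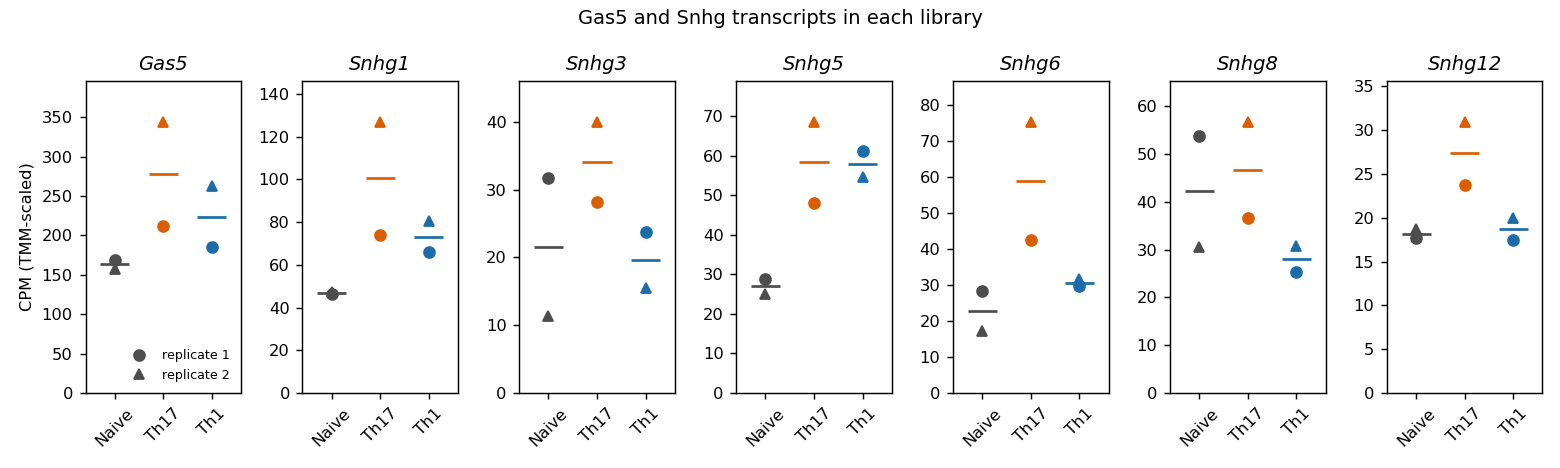
TMM-scaled CPM of each member (vertical axes, from 0, with a separate scale for each member) in Naive, Th17 and Th1. Circles are replicate 1, triangles replicate 2 and bars the mean of 2 libraries. The Th17 triangle is the highest point in every panel.

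Levels of different members can be compared only per length, here as CPM per kilobase of the median spliced transcript in GENCODE. In Naive, *Gas5* had 325 ± 14.9 CPM per kilobase (SD, n = 2), *Snhg8* 86.6 ± 33.6, *Snhg1* 85.4 ± 1.01, *Snhg3* 49.2 ± 33.1, *Snhg6* 40.8 ± 14.2, *Snhg5* 34.6 ± 3.52 and *Snhg12* 19.9 ± 0.842. *Gas5* came first and *Snhg12* last in all 3 cell types, and between them the libraries of *Snhg8* and *Snhg1* overlapped in Naive, as did those of *Snhg3* with *Snhg6* and of *Snhg6* with *Snhg5*. In Th17, *Gas5* had 553 ± 187 and *Snhg1* 183 ± 68.0 CPM per kilobase, and *Snhg6*, *Snhg8*, *Snhg3* and *Snhg5* followed with overlapping libraries and means between 74.6 and 105. In Th1, *Gas5* had 445 ± 110, *Snhg1* 133 ± 18.3 and *Snhg5* 74.1 ± 5.97 CPM per kilobase, so that *Snhg5* stood at place 3, against place 6 in Naive and in Th17. The libraries of *Snhg8*, *Snhg6* and *Snhg3* overlapped in Th1. The order rests on the transcript length: per kilobase of all annotated exon sequence, retained introns included, *Snhg8* came before *Gas5* in Naive, with 49.5 against 43.4. By that length *Snhg1* stood at place 5 in all 3 cell types, with 15.8 in Naive, 33.9 in Th17 and 24.6 in Th1.

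The comparison of Th17 with Naive asked which transcripts changed as naive cells became Th17 cells. All 7 members had a log2 fold change above 0, with a median of 0.77 against -0.02 for all genes tested, and 49.2% of all genes were above 0. None was called at an adjusted p-value under 0.01 with an absolute log2 fold change above 1 by edgeR's quasi-likelihood test (0 of 7, where 5.43% of all genes were called, 4.01% higher and 1.43% lower). At an unadjusted p-value under 0.05 there were 4 members, against 33.3% of all genes. *Snhg6* had the largest change, 1.36 (95% confidence interval 0.56 to 2.17, adjusted p = 0.032), followed by *Snhg5* with 1.11 (0.48 to 1.74, adjusted p = 0.028) and *Snhg1* with 1.10 (0.42 to 1.78, adjusted p = 0.038). DESeq2, the tool of the study, called 2 members, *Snhg5* (log2 fold change 1.12, adjusted p = 0.0029) and *Snhg6* (1.38, adjusted p = 0.0050), where it called 12.6% of all genes. With no filter on low counts edgeR called 3, *Snhg1*, *Snhg5* and *Snhg6* (12.1% of all genes), and DESeq2 with the replicate number as a block called *Snhg6* alone (11.4%). For *Gas5* the log2 fold change was 0.77 (0.06 to 1.48, adjusted p = 0.12), and without Th17 replicate 2 it was 0.37. Without that library *Snhg6*, *Snhg5* and *Snhg1* had 0.89, 0.83 and 0.66, all under 1. *Snhg3* and *Snhg12* had changes of 0.65 and 0.59 with intervals that held 0, and the *Snhg3* value was 1.59 without Naive replicate 1 and 0.09 without Naive replicate 2. *Snhg8* had 0.14 (-0.64 to 0.92), and -0.21 without Th17 replicate 2. In 5 of the 7 members the Th17 libraries lay wholly above the Naive libraries, which was so for 32.4% of all genes tested.

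The comparison of Th1 with Naive gave smaller and more mixed values. Of the members 5 of 7 had a log2 fold change above 0, where 48.9% of all genes did. By edgeR 0 of 7 were called, where 7.45% of all genes were called, 4.64% higher and 2.81% lower, and 1 member had an unadjusted p-value under 0.05, against 29.9% of all genes. That member was *Snhg5*, with a log2 fold change of 1.10 (95% confidence interval 0.47 to 1.73, adjusted p = 0.026). DESeq2 called *Snhg5* and no other member (1.11, adjusted p = 0.0027), where it called 14.1% of all genes, as did edgeR with no filter on low counts (12.7% of all genes). *Snhg1* had a change of 0.64 (-0.03 to 1.31), *Gas5* 0.45 (-0.25 to 1.16) and *Snhg6* 0.42 (-0.38 to 1.21), all with adjusted p-values of 0.19 or more. *Snhg12* had 0.04 (-0.62 to 0.70), which turned to -0.21 when libraries were scaled by their size alone. *Snhg3* had -0.14 (-1.17 to 0.89) and *Snhg8* -0.60 (-1.38 to 0.18). In 4 members the Th1 libraries lay wholly above the Naive libraries (27.6% of all genes), but with library size alone, which moved the median of all genes from -0.02 to -0.26, this held for *Snhg1* and *Snhg5* only, and *Snhg8* and *Snhg12* lay wholly below. Both comparisons use the same Naive libraries, so their values are not independent of each other.

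Between Th1 and Th17, every member had a log2 fold change below 0, so that 0 of 7 were above 0 where 48.8% of all genes were, with a median of -0.55 against -0.03 for all genes, but for *Snhg5* the value was -0.01 and it turned to 0.02 without the filter on low counts. By edgeR 0 of 7 members were called, where 5.53% of all genes were called, 2.7% higher and 2.83% lower, 1 had an unadjusted p-value under 0.05, against 33.8% of all genes, and DESeq2 called 0, where it called 13.5% of all genes. *Snhg6* differed most, at -0.94 (95% confidence interval -1.74 to -0.14, adjusted p = 0.098). It was followed by *Snhg3* at -0.79 (-1.83 to 0.24), *Snhg8* at -0.74 (-1.52 to 0.05) and *Snhg12* at -0.55 (-1.21 to 0.11). The values for *Snhg1* and *Gas5* were -0.46 (-1.13 to 0.21) and -0.31 (-1.02 to 0.39), and the *Gas5* value was 0.09 without Th17 replicate 2. For *Snhg5* the interval ran from -0.63 to 0.61, which is the range of differences these libraries leave possible. In 4 members the Th1 libraries lay wholly below the Th17 libraries, as did 35.1% of all genes. With library size alone this held for 6 members, *Gas5* and *Snhg1* included.

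**Figure D3:**
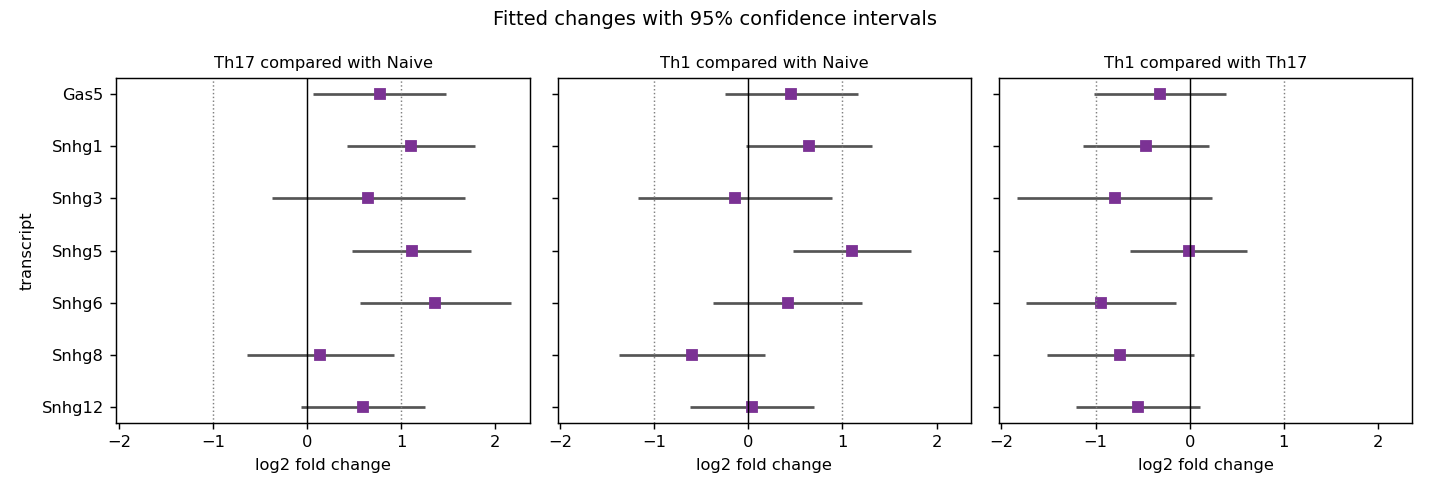
Log2 fold change (horizontal axis) of each member in the 3 comparisons, from edgeR's model of all 6 libraries. Squares are the fitted values, lines the 95% confidence intervals, and dotted lines a log2 fold change of 1 in each direction. *Snhg1*, *Snhg5* and *Snhg6* exceed 1 in Th17 relative to Naive, and *Snhg5* in Th1 relative to Naive.

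The snoRNAs themselves were scarcely measured. The libraries were made from polyadenylated RNA, which mature snoRNAs are not, and 19 of the 27 snoRNA loci had no row under their GENCODE symbol in the count files. Rows were matched by symbol alone, and many of these loci have placeholder symbols in GENCODE, so a snoRNA counted under another name would be missed. The 8 matched loci summed to between 14 and 210 counts per library, beside between 6224 and 30351 counts of the hosts. Snora16a, in *Snhg12*, had the most, with 95 and 52 counts in the Naive libraries, 121 and 31 counts in Th17 and 78 and 10 counts in Th1. Exons of some spliced *Snhg12* transcripts in GENCODE overlap all 4 of its snoRNAs, so reads of the host and of the snoRNA may share these rows. Snord99, in the same host, had 37 and 25 counts in the Naive libraries, 40 and 19 counts in Th17 and 26 and 0 counts in Th1. Snord47 of *Gas5* had at most 3 counts in a library, Snord87 of *Snhg6* at most 2, and Snora24 of *Snhg8* had 0 in every library, while their hosts had at least 347 counts in every library.

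4 members adjoin or overlap a protein-coding gene. *Snhg1* starts 106 bases from *Slc3a2*, the heavy chain of amino acid transporters, which runs the other way. *Slc3a2* had 145 and 131 CPM in Naive, 91.6 and 95.1 CPM in Th17, and 156 and 116 CPM in Th1, so its Th17 libraries were the lowest where those of *Snhg1* were among the highest. Its log2 fold change in Th17 relative to Naive was -0.57 (adjusted p = 0.16), against 1.10 for *Snhg1*. *Zbtb37*, a zinc finger gene, starts 427 bases from the start of *Gas5* on the opposite strand and overlaps it by 428 bases. *Zbtb37* had 8.87 and 19.3 CPM in Naive, 8.54 and 7.47 CPM in Th17, and 7.40 and 4.49 CPM in Th1, and its log2 fold changes relative to Naive were -0.81 and -1.23, neither called. The labels describe a Smart-seq2 reaction, which does not mark strand, while the study's code counts by strand, so reads in the shared bases may not be told apart.

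*Snhg3* overlaps *Rcc1*, which encodes the exchange factor of the Ran GTPase, on the same strand, with 5592 bases in common and starts 81 bases apart. *Rcc1* had 110 and 49.7 CPM in Naive, 54.0 and 43.2 CPM in Th17, and 144 and 48.1 CPM in Th1. In Naive and in Th1 both genes were higher in replicate 1, and in Th17 they differed in opposite directions. Reads on exons that both genes use cannot be assigned to 1 of them, so the values of *Snhg3* are less certain than those of the other members. *Rcc1* was called in none of the 3 comparisons. For *Snhg6*, the overlapping gene *Mcmdc2* had at most 7 counts in a library.

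**Figure D4:**
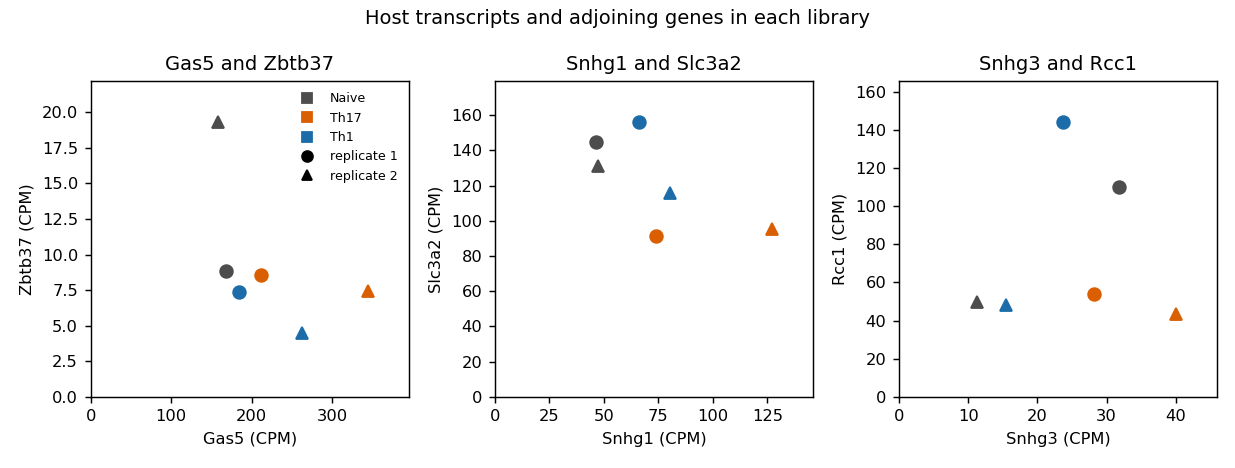
CPM of 3 members (horizontal axes) and of the gene that adjoins or overlaps each (vertical axes), all from 0, with 1 point per library. Colours give the cell type, circles replicate 1 and triangles replicate 2. The Th17 points are the lowest for *Slc3a2*, and replicate 1 lies above replicate 2 for *Rcc1* in Naive and Th1.

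Genes that share roles with the members were read from lists in the same fit. A list of 15 other noncoding hosts had 9 in the files and 6 tested, of which 0 were called in any comparison by edgeR or DESeq2, with at most 2 at an unadjusted p-value under 0.05. Their median log2 fold changes were 0.91 in Th17 relative to Naive, -0.09 in Th1 relative to Naive and -0.74 in Th1 relative to Th17. These medians rest on 6 genes, some at low levels. *Snhg14* had 0.0734 and 0 CPM in Naive, near or below the limit of detection, and *Snhg10* had between 0.464 and 2.15 CPM. The most abundant was *Snhg4*, with 14.2 and 6.39 CPM in Naive and between 6.42 and 7.25 CPM in the cultures. It was the only 1 of the 6 below 0 in Th17 relative to Naive, at -0.57. *Mir17hg*, also on the list, is a host of microRNAs and not of snoRNAs, and had 2.47 and 4.56 CPM in Naive, 6.98 and 8.20 CPM in Th17, and 8.83 and 1.07 CPM in Th1.

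Of 24 protein-coding snoRNA hosts tested, among them ribosomal proteins with TOP mRNAs, 0 were called by edgeR in any comparison, and 1 to 4 had an unadjusted p-value under 0.05. DESeq2 called 0, 1 and 3 of them in Th17 relative to Naive, Th1 relative to Naive and Th1 relative to Th17. It called 12.6%, 14.1% and 13.5% of all genes there. Their median log2 fold change was 0.38 in Th17 relative to Naive, with 21 of 24 above 0, and 0.14 in Th1 relative to Naive. *Tpt1*, which encodes a translationally controlled protein, had 4190 and 3780 CPM in Naive, 4460 and 7140 CPM in Th17, and 3370 and 4300 CPM in Th1. Like the members it was highest in Th17 replicate 2. *Eef2*, a translation elongation factor, had 5530 and 6260 CPM in Naive, 4070 and 3400 CPM in Th17, and 7380 and 12400 CPM in Th1, with no overlap between the 3 cell types and a log2 fold change of 1.41 in Th1 relative to Th17 (adjusted p = 0.038).

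Proteins that bind and assemble snoRNAs had list medians below 0 in both cultures. Of 8 core proteins and 9 assembly factors tested, 0 were called by edgeR or DESeq2 in any comparison, with 1 or 2 of each list at an unadjusted p-value under 0.05. The core proteins had medians of -0.18 for Th17 and -0.30 for Th1, both relative to Naive, and the assembly factors -0.42 and -0.22. Every gene of both lists was higher in Naive replicate 1 than in replicate 2, as with *Nhp2* at 238 and 77.3 CPM. In Naive replicate 2, *Nop56*, *Nop58*, *Nhp2l1*, *Nhp2* and *Nop10* lay below both Th17 libraries, while *Fbl* and *Gar1* lay above them. How far the list medians rest on Naive replicate 1 was not tested. *Fbl*, the methyltransferase of C/D snoRNPs, had 315 and 178 CPM in Naive and between 136 and 166 CPM in the 4 cultures. *Nop56*, a core protein that is also a snoRNA host, had 217 and 147 CPM in Naive, 178 and 222 CPM in Th17, and 200 and 106 CPM in Th1. *Ruvbl2* and *Ruvbl1*, ATPases of the assembly complex, were highest in Naive replicate 1, at 151 and 125 CPM, and between 56.1 and 94.9 CPM in the other libraries.

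The factors of nonsense-mediated decay had list medians of the opposite sign to those of the members, though in Th1 relative to Naive 2 of the 10 factors were above 0. A median below 0 in Th17 relative to Naive was not particular to this list. It was -0.63 for regulators of mTORC1 and of TOP mRNAs, and -1.33 for the glucocorticoid receptor and genes it induces. All 10 tested had a log2 fold change below 0 in Th17 relative to Naive, with a median of -0.83, and all 10 were above 0 in Th1 relative to Th17, with a median of 0.52. In both comparisons 0 were called by edgeR and 1 was called by DESeq2, which called 12.6% and 13.5% of all genes. At an unadjusted p-value under 0.05 there were 7 and 4, against 33.3% and 33.8% of all genes. In Th1 relative to Naive the median was -0.24, 0 were called by either tool and 2 had an unadjusted p-value under 0.05. *Upf1*, the helicase at the core of the pathway, had 207 and 239 CPM in Naive, 129 and 80.3 CPM in Th17, and 206 and 159 CPM in Th1, a log2 fold change of -1.09 in Th17 relative to Naive (adjusted p = 0.040). *Smg1*, the kinase that phosphorylates it, had 304 and 602 CPM in Naive and between 217 and 283 CPM in the cultures. The relation between these genes and the members was not tested.

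Among 12 regulators of mTORC1 and of TOP mRNAs, 1 gene was called lower in Th1 relative to Naive (2.81% of all genes). In Th1 relative to Th17, 1 was called higher (2.7% of all genes). The former was *Ddit4*, an inhibitor of mTORC1, which fell from 571 and 462 CPM in Naive to 184 and 131 CPM in Th1 (log2 fold change -1.71, adjusted p = 0.0048). The latter was *Larp1*, a protein that binds the cap and TOP tract of these mRNAs, with 410 and 337 CPM in Th1 against 158 and 97.6 CPM in Th17 (1.55, adjusted p = 0.0096), and 198 and 192 CPM in Naive. In Th17 relative to Naive 0 of the 12 were called by edgeR and 1 by DESeq2 (12.6% of all genes). An unadjusted p-value under 0.05 was found for 5, against 33.3% of all genes.

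The glucocorticoid receptor, which *Gas5* RNA can bind, and genes it induces held the most called genes of these lists. Of 7 tested, 3 were called lower in Th17 relative to Naive, against 1.43% of all genes. In Th1 relative to Naive 1 was called lower (2.81% of all genes). In Th1 relative to Th17, 1 was called higher (2.7%) and 1 lower (2.83%). DESeq2 called 5, 1 and 3 of the 7 in these comparisons, where it called 12.6%, 14.1% and 13.5% of all genes. At an unadjusted p-value under 0.05 there were 7, 1 and 5, against 33.3%, 29.9% and 33.8% of all genes. *Nr3c1*, the receptor, fell from 96.4 and 115 CPM in Naive to 45.8 and 38.6 CPM in Th17 (log2 fold change -1.32, adjusted p = 0.0092) and had 76.7 and 90.6 CPM in Th1. *Tsc22d3*, which encodes the glucocorticoid-induced leucine zipper, fell from 226 and 298 CPM in Naive to 40.9 and 65.0 CPM in Th17 and to 51.2 and 76.9 CPM in Th1 (-2.31 and -2.03, adjusted p = 0.0021 and 0.0032). *Dusp1*, a phosphatase of MAP kinases, fell to 20.1 and 16.6 CPM in Th17 from 72.7 and 131 CPM in Naive (-2.47, adjusted p = 0.0043), and was higher in Th1, at 71.9 and 154 CPM, than in Th17 (2.62, adjusted p = 0.0035). *Sgk1*, a kinase, went the other way, with 38.8 and 58.1 CPM in Naive, 120 and 125 CPM in Th17, and 36.7 and 34.8 CPM in Th1. Its log2 fold change was 1.34 in Th17 relative to Naive (adjusted p = 0.012, not called). In Th1 relative to Th17 it was -1.77 (adjusted p = 0.0033). These genes respond to other signals as well.

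**Figure D5:**
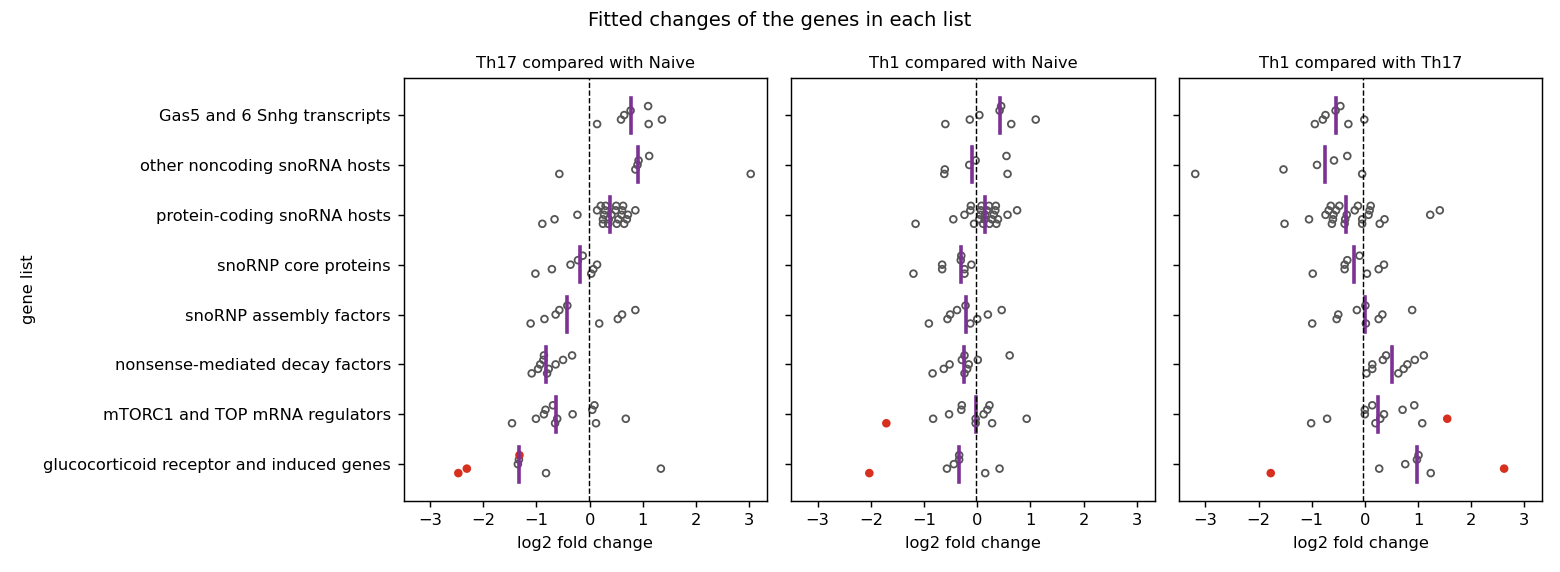
Log2 fold change (horizontal axis) of every gene tested in each list, for the 3 comparisons. Filled red points were called, purple bars are list medians, and the dashed line is the median of all genes tested. The members and the other noncoding hosts lie mostly to the right in Th17 relative to Naive, and the decay factors wholly to the left.

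The genes with patterns most like that of *Gas5* were found by the root-mean-square distance between log2 CPM over the 6 libraries, each gene centred on its own mean. The nearest 5 of 13606 were *Erlec1* (distance 0.0788), *Dpm1* (0.0809), *Nsa2* (0.0849), *Eapp* (0.0865) and *Chmp2b* (0.0928). *Nsa2*, which acts in the assembly of the large ribosomal subunit, had 249 and 238 CPM in Naive, 315 and 529 CPM in Th17, and 289 and 461 CPM in Th1. Like *Gas5*, all 5 were highest in Th17 replicate 2, which follows from how they were chosen. *Snhg1* stood at place 89 in this order (distance 0.153) and *Snhg12* at 344 (0.214), while *Snhg5*, *Snhg6*, *Snhg8* and *Snhg3* came at 1570, 1904, 3277 and 5145. Between members the distances ranged from 0.153 for *Gas5* and *Snhg1* to 0.707 for *Snhg5* and *Snhg8*. These distances rest on 6 points that share the same libraries and scaling, and are given as a description.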

How the data were processed

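Per the labels and the study's methods, RNA-Seq reads were aligned to mm10 by HISAT2 2.2.1 and counted per gene by HTSeq 0.13.5, and the authors deposited raw whole-number counts for each library. The methods speak of counts of protein-coding genes, but the files hold these noncoding transcripts too. Per the methods duplicates were removed and default settings used, whereas the supplementary code shows reverse-strand counting and no removal step. The annotation is not given in the sources used here. Tests were run in edgeR 4.0.16 (with limma 3.58.1, under R 4.3.3), and in DESeq2 1.42.0 as an alternative. Genes passing filterByExpr were scaled by TMM and fitted with cell type as the only term over all 6 libraries, so that all groups share 1 estimate of the spread. P-values are from edgeR's quasi-likelihood F-test with Benjamini-Hochberg adjustment over all genes tested. CPM use TMM-scaled totals, and log2 CPM a prior count of 2. The model was tested on simulated data. Library totals ran from 17742158 to 69080017 counts, and the limit of 3 counts covers counting error only. Alternatives were other scalings, filters, tools and thresholds, a replicate block, thinning, and leaving out each library.

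The members and lists were chosen with earlier results of these data known, and the lists were written by hand. Named genes were all members, up to 4 called genes of each list with the largest absolute log2 fold change and more than 3 counts in every library or, with none called, the 2 of highest mean CPM, adjoining and overlapping genes, and the 5 genes nearest to *Gas5*. *Rack1* and *Snu13* were listed under 2 names each and counted once. Coordinates and snoRNA sequences are from GENCODE vM21 (GRCm38), and promoters from RefSeq (GRCm38.p6), with 6 of 7 members matched. A marker gene, and the summed level of its list, are not reported here.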

Additional observations from a re-analysis of the deposited data

How the results depend on the processing

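Over 15 alternatives for each member and comparison, 295 of 315 log2 fold changes kept their sign and their side of the threshold, 8 were newly called and 12 changed sign. In Th17 relative to Naive, the members called were 0 by edgeR, 2 by DESeq2, 3 (*Snhg1*, *Snhg5*, *Snhg6*) with no filter on low counts, where 12.1% of all genes were called, and 3 at an adjusted p-value under 0.05 (15.2% of all genes). In Th1 relative to Naive they were 0, 1, 1 (12.7%) and 1 (15.9%), in each case *Snhg5*. In Th1 relative to Th17 every alternative gave 0. Leaving out each library in turn gave 0 to 0 members called in each comparison. A library left alone in its group was assumed to vary like the others.

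The values that changed sign were all uncalled. With a library left out, *Snhg8* in Th17 relative to Naive ranged from -0.22 to 0.61, *Snhg3* in Th1 relative to Naive from -0.69 to 0.79 and *Snhg12* from -0.05 to 0.18, and in Th1 relative to Th17 *Gas5* ranged from -0.63 to 0.09 and *Snhg5* from -0.25 to 0.28. With library size alone *Snhg12* in Th1 relative to Naive was -0.21, and with no filter *Snhg5* in Th1 relative to Th17 was 0.02. The cause was not tested. Genes called over all alternatives numbered from 319 to 2154, 516 to 2259 and 266 to 2232 in the 3 comparisons, against 739, 1014 and 752.

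Replicate numbers are shared between cell types, but nothing says that they pair the samples. The deviations of replicate 1 from the group mean had r = -0.23 across genes for Naive and Th17, 0.17 for Naive and Th1, and 0.077 for Th17 and Th1. With the replicate number as a block, edgeR called 0 members in each comparison, with all genes called at 1035, 1402 and 1041. DESeq2 with the replicate block called 1 member in Th17 relative to Naive, *Snhg6* (log2 fold change 1.36, adjusted p = 0.0075), where it called 11.4% of all genes, and 0 in Th1 relative to Naive (13.5%) and in Th1 relative to Th17 (12%).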

Other observations

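Over all 119 rows named as snoRNAs or small Cajal body RNAs in the count files, between 48 and 88 had a count in a library. Their summed level was 54.6 and 74.3 CPM in Naive, 66.3 and 73.4 CPM in Th17, and 51.2 and 26.7 CPM in Th1. Th1 replicate 2 was the lowest, from 422 counts, and no comparison was made.

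Proliferation genes (*Mki67*, *Top2a*, *Pcna* and 3 *Mcm* genes) summed to 1580 and 804 CPM in Naive, 1450 and 1300 CPM in Th17, and 4400 and 1340 CPM in Th1. *Mki67* stood at 137 and 92.0 CPM in Naive. The summed level of the members was 408 CPM in Th1 replicate 1, where the proliferation genes were highest, and 743 CPM in Th17 replicate 2. The relation between the members and these genes was not tested.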
